A study of Mus musculus with 12 samples.

Results

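Granule protein genes encode the antimicrobial proteins and proteases that neutrophils store for release, and 10 of them were followed through YTHDF2 RIP-seq libraries labelled as tumor-infiltrating CD11b+ myeloid cells. The genes were listed by the granule that holds their product and matched by symbol, with earlier results of these data known, and they were 10 of the 54446 annotated genes that each library lists. *Mpo*, *Elane*, *Prtn3* and *Ctsg* belong to the primary (azurophil) granules, *Ltf*, *Lcn2*, *Ngp* and *Camp* to the secondary (specific) granules, and *Mmp8* and *Mmp9* are the collagenase and the gelatinase of the specific and tertiary granules. RIP-seq recovers RNA with an antibody against an RNA-binding protein and sequences it beside the RNA of the whole lysate. All libraries came from WT mice bearing MC38 tumors, a mouse colon carcinoma line, and CD11b+ cells were sorted from the tumors. Ctrl mice were not irradiated, and IR mice received a single dose of 20 Gy to the tumor 3 days before the cells were collected. Each condition had 3 pools, and each pool gave an Input library (lysate RNA, no antibody) and an IP library (RNA recovered with anti-YTHDF2), which made 12 libraries in 4 groups of 3. The methods describe the WT animals as Ythdf2 f/f mice, pooled for each replicate, and call the replicates technical, so p-values measure the spread between these pools. No library with a control antibody was analysed here.

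Neutrophils fill their granules in the order in which they make the contents. Promyelocytes transcribe the primary granule genes, myelocytes and metamyelocytes transcribe the secondary granule genes, and the gelatinase granules follow in later stages. A circulating neutrophil holds the proteins while most of the primary granule mRNA is gone, so primary granule transcripts are commonly read as a mark of immature granulocytic cells. YTHDF2 binds RNA that carries m6A, a methylated adenosine, and recruits the machinery that removes the poly(A) tail and degrades the transcript. In bulk samples such as these, fewer cells of a type and less RNA per cell cannot be told apart.

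The Input libraries held between 34445784 and 42382532 counts on genes and the IP libraries between 27852948 and 33882664. Reads outside annotated exons (no feature) made up 24.6% to 27.0% of the reads in the Input, 41.8% to 42.7% in the Ctrl IP and 49.4% to 54.1% in the IR IP. *Itgam*, which encodes CD11b, was measured at 942 to 945 CPM in the Ctrl Input and at 1692 to 1738 CPM in the IR Input (CPM, counts scaled to a common library size with TMM factors, the trimmed mean of M-values, over all 12 libraries). The neutrophil marker *Ly6g* was low, at 8.97 to 13.2 CPM over the 6 Inputs, beside 1852 to 3102 CPM of *S100a8*. Other neutrophil genes outside the granules ranged widely in the Ctrl Input. *S100a9*, *Csf3r*, *Il1r2* and *Cxcr2* had means of 3518, 507, 73.6 and 55.2 CPM, and *Retnlg* and *Stfa3* of 12.2 and 3.13 CPM. Of the epithelial genes, the keratin *Krt19* had no count in any of the 12 libraries, which allows up to 3 counts in each, that is 0.0708 to 0.0871 CPM in the Inputs, whereas the cadherin *Cdh1* was measured at 115 to 122 CPM in the Ctrl Input and 85.97 to 90.1 CPM in the IR Input, and *Epcam* at 4.34 to 6.58 CPM over both. Of the monocyte and macrophage markers, *Csf1r*, *Ccr2*, *Ly6c2* and *Mrc1* had means of 214, 201, 194 and 124 CPM in the Ctrl Input, while *C1qa*, a marker of tissue macrophages, was measured at 1.28 to 2.82 CPM over the 6 Inputs. The T cell gene *Cd3e* was measured at 0 to 0.0771 CPM. Of the proliferation genes, *Mki67* stood at 665 to 684 CPM in the Ctrl Input and at 351 to 361 CPM in the IR Input, and *Top2a* at 476 to 488 and at 494 to 509 CPM. CD11b was thus well detected. *Ly6g*, a marker of mature neutrophils, and *C1qa*, a marker of tissue macrophages, were low beside it. Neutrophil genes such as *S100a8*, *S100a9* and *Csf3r* were high, so *Ly6g* alone does not give the level of neutrophil transcripts. The labels place the cells in a tumor. The source of the cells was not tested, and each level below is that of the libraries so labelled.

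The promoters of the 4 primary granule genes are shown because these genes fell together after irradiation in both fractions. The sequences are the 250 bases before the RefSeq start on GRCm38.p6, in the direction of transcription, and the capitals mark every match on either strand to GAGGAA, a core of sites for PU.1 (the *Spi1* product, a master factor of myeloid cells), and to TTNNGNAA, a core of sites for C/EBP factors.
Mpo, chr11:87793534-87793783, plus strand: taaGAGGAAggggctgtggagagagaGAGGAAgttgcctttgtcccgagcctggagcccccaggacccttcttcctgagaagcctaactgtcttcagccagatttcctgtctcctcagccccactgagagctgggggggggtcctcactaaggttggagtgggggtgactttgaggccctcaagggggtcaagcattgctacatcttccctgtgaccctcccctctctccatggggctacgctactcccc
Elane, chr10:79886062-79886311, plus strand: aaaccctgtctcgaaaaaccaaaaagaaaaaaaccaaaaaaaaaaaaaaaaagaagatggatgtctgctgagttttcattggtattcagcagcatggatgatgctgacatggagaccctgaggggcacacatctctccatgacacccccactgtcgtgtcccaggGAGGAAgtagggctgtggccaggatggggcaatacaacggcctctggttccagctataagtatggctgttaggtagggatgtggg
Prtn3, chr10:79879417-79879666, plus strand: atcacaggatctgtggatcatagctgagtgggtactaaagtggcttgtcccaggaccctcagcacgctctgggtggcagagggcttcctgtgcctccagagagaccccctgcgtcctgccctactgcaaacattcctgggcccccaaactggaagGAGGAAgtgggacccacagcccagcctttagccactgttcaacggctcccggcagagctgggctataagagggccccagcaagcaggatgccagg
Ctsg, chr14:56102575-56102824, minus strand: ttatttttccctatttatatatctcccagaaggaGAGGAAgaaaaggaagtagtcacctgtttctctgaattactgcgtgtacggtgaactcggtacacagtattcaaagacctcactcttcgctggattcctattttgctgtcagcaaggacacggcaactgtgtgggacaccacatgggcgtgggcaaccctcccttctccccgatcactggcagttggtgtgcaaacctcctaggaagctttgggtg
Each of the 4 windows held GAGGAA, beginning 247 and 224 bases before the start in *Mpo*, 85 in *Elane*, 95 in *Prtn3* and 216 in *Ctsg*. Over the 9 members with a RefSeq promoter (*Mmp9* was not matched), 7 windows held GAGGAA on either strand, against 23.3% of all 32851 promoters. TTNNGNAA was in 4 of the 9 windows, those of *Ltf*, *Lcn2*, *Ngp* and *Mmp8*, and in none of the 4 primary windows, against 36.8% of all promoters. The MYB core AACNG matched in 9 of 9 windows and in 74.2% of all promoters, and the RUNX core TGTGGT in the *Ctsg* window alone and in 14.05% of all promoters. A match is a description of the letters and no evidence of a bound factor. *Prtn3* and *Elane* lie on chromosome 10, on the same strand and 3073 bases apart, with no other coding gene between them. *Camp*, *Ngp* and *Ltf* lie within one stretch of chromosome 9, 570 kb apart for *Camp* and *Ngp* and 596 kb for *Ngp* and *Ltf*.

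The secondary granule genes were among the most abundant coding transcripts of these cells. Per kilobase of exon, *Ngp* (neutrophilic granule protein) ranked 18 among 21905 coding genes in the Ctrl Input, at 1464 ± 31.9 CPM per kb (SD, n = 3). *Ltf* (lactoferrin, which binds iron) ranked 48 at 721 ± 7.02 CPM per kb, *Camp* (the cathelicidin antimicrobial peptide) 70 at 497 ± 12.7 CPM per kb, and *Lcn2* (lipocalin 2, which captures bacterial siderophores) 79 at 455 ± 15.8 CPM per kb. *Elane* (neutrophil elastase) led the primary genes at rank 201 with 165 ± 6.82 CPM per kb. *Prtn3* (proteinase 3), *Mmp8*, *Mpo* (myeloperoxidase, which makes hypochlorous acid), *Ctsg* (cathepsin G) and *Mmp9* followed at 126 ± 1.75, 102 ± 2.87, 85.4 ± 1.47, 58.8 ± 2.03 and 37.7 ± 1.09 CPM per kb. No neighbours in this order had overlapping libraries, which speaks to the spread between libraries and not to the choice of length. In the IR Input the order of the first places was *Ngp* (1679 ± 66.5 CPM per kb), *Ltf* (770 ± 8.14), *Lcn2* (638 ± 14.2) and *Camp* (614 ± 16.4), and the libraries of *Lcn2* and *Camp* overlapped. *Mpo* was then the lowest of the 10 at 22.7 ± 0.163 CPM per kb, and its rank among coding genes went from 444 to 2134. The length is that of all annotated exons, which for some genes reaches well beyond the main transcript and lowers their level per kilobase. It is 2623 bases for *Lcn2*, 1732 for *Prtn3* and 3424 for *Mpo*, against main transcripts of 915, 1025 and 2750 bases. The order of the genes, with the first place of *Elane* among the primary genes and the last of *Mpo* in IR, thus depends on this length. An order by main transcript was not taken. Together the 10 genes took 0.705% to 0.734% of the counts in the Inputs and 0.189% to 0.205% of those in the IPs.

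**Figure D1:**
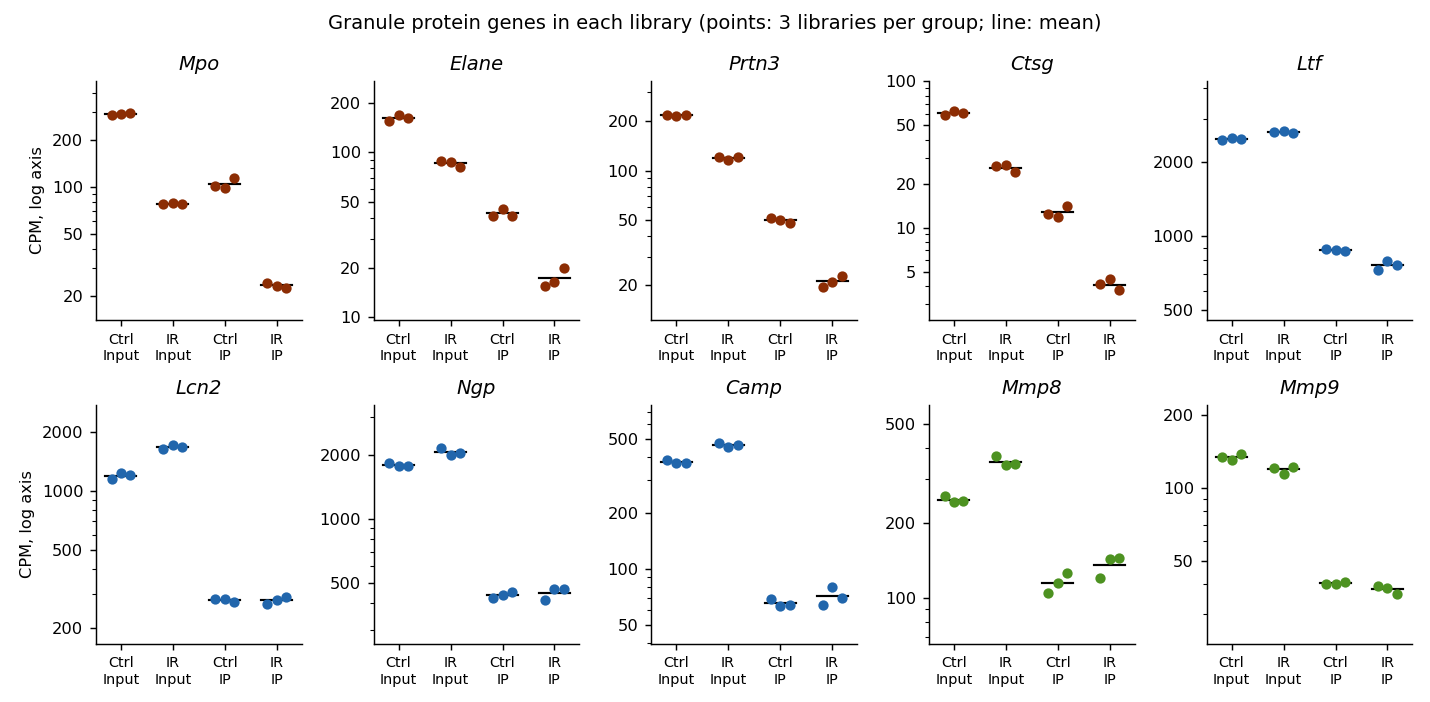
CPM (log axis) of each granule protein gene in the 12 libraries, with 3 points per group and a line at the mean; brown marks primary, blue secondary granule genes and green the metalloproteinases. The 4 primary genes were lower in IR than in Ctrl in both fractions, and all 10 genes were lower in the IP than in the Input.

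The first question was whether irradiation changed the RNA level of the granule genes in the cells labelled as tumor-infiltrating. The primary granule genes fell and most of the others rose or kept near the level of the median gene. All 4 primary genes passed the test downward (edgeR quasi-likelihood test on the 6 Input libraries, Benjamini-Hochberg adjusted p under 0.05), and so did *Mmp9*. With these 5 of 10 members lower, the background was 23.9% of the 16914 genes tested. *Lcn2*, *Ngp*, *Camp* and *Mmp8* rose, 4 of 10 members against 21% of all genes tested, and *Ltf* did not pass. The median log2 change was -1.16 over the primary genes and 0.17 over the secondary genes, and 0.0072 over all genes.

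*Mpo* gave 287, 293 and 297 CPM in the Ctrl Inputs and 77.6, 78.4 and 77.4 CPM in the IR Inputs. The groups lay far apart and each was tight. Its level was 3.97-fold lower after irradiation (log2 change -1.99, SE 0.035, adjusted p = 4.44e-25 by edgeR), which placed it at percentile 1.72 of the changes of all genes. *Ctsg* gave 58.7, 62.9 and 60.8 CPM in Ctrl and 26.5, 26.6 and 24.1 CPM in IR. Every IR library was below every Ctrl library. *Ctsg* was 2.49-fold lower (log2 change -1.32, SE 0.056, adjusted p = 2.39e-16 by edgeR). *Elane* gave 156, 169 and 162 CPM in Ctrl and 89.1, 87.0 and 81.9 CPM in IR, and *Prtn3* 218, 214 and 220 CPM in Ctrl and 120, 117 and 121 CPM in IR. These neighbouring protease genes thus fell by nearly the same amount, 1.99-fold for *Elane* (log2 change -0.99, SE 0.041, adjusted p = 1.14e-16 by edgeR) and 1.92-fold for *Prtn3* (-0.94, SE 0.035, 1.08e-17). Part of *Prtn3*, 159 of 1732 exon bases, overlaps *Plppr3* on the other strand, which fell from 41.2 to 24.5 CPM in the same libraries, and the setting for strand in the counting is not given in the sources used here. *Mpo* shares 512 of 3424 exon bases with the antisense gene *Gm11505*, which had at most 14 counts in any library.

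The secondary granule genes moved little by comparison. *Lcn2* gave 1150, 1233 and 1200 CPM in the Ctrl Inputs and 1641, 1714 and 1666 CPM in the IR Inputs. It had the largest rise of the 4, with no overlap between the groups, at 1.33-fold (log2 change 0.41, SE 0.027, adjusted p = 2.32e-12 by edgeR). *Camp* gave 387, 370 and 372 CPM in Ctrl and 478, 453 and 466 CPM in IR, which is 1.17-fold higher (log2 change 0.23, SE 0.032, adjusted p = 1.47e-06 by edgeR). *Ngp* gave 1833, 1761 and 1772 CPM in Ctrl and 2142, 1984 and 2030 CPM in IR. The groups did not overlap, and the fitted rise was 1.09-fold (log2 change 0.12, SE 0.029, adjusted p = 0.00113 by edgeR). *Ltf* gave 2462, 2510 and 2486 CPM in Ctrl and 2668, 2677 and 2624 CPM in IR, and here the scale decided. With factors over all 12 libraries the groups did not overlap, but the median gene was also higher in the IR Inputs, by 0.097 (log2), against 0.0072 with factors over the 6 Inputs alone. On the latter scale *Ltf* ranged from 2501 to 2533 CPM in Ctrl and from 2510 to 2563 CPM in IR, so the groups overlapped, and the tested change was 0.017 (SE 0.023, adjusted p = 0.588 by edgeR). The same 12-library scale lifts the IR values of the other members printed here by a like amount, and each printed change comes from the 6-library fit. The one fit over all 12 libraries called *Ltf* higher (log2 change 0.096, adjusted p = 0.0269 by edgeR), and 63.6% of its calls were higher, against 46.8% in the fit of the 6 Inputs.

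Of the metalloproteinases, *Mmp8* (neutrophil collagenase) rose and *Mmp9* (gelatinase B) fell. *Mmp8* gave 256, 243 and 245 CPM in the Ctrl Inputs and 374, 341 and 346 CPM in the IR Inputs, all of them above the Ctrl range. Its fitted change was 1.35-fold higher (log2 change 0.43, SE 0.037, adjusted p = 2.01e-10 by edgeR). *Mmp9* gave 134, 129 and 137 CPM in Ctrl and 121, 114 and 122 CPM in IR, with all IR libraries lower. It was 1.19-fold lower (log2 change -0.25, SE 0.039, adjusted p = 8.69e-06 by edgeR).

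The balance between the granule classes shifted accordingly. The summed primary genes fell from 733 ± 11.4 CPM (SD, n = 3) in the Ctrl Input to 309 ± 4.61 CPM in the IR Input, while the summed secondary genes stood at 5845 ± 24.2 and 6848 ± 73.2 CPM. The primary sum was 12.3%, 12.6% and 12.7% of the secondary sum in the Ctrl Inputs and 4.53%, 4.53% and 4.49% in the IR Inputs. This share does not depend on the scaling between libraries, and its groups did not overlap. In the IP it was 12.6% ± 0.373 in Ctrl and 4.21% ± 0.169 in IR, so the same shift stood in the RNA recovered with YTHDF2.

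**Figure D2:**
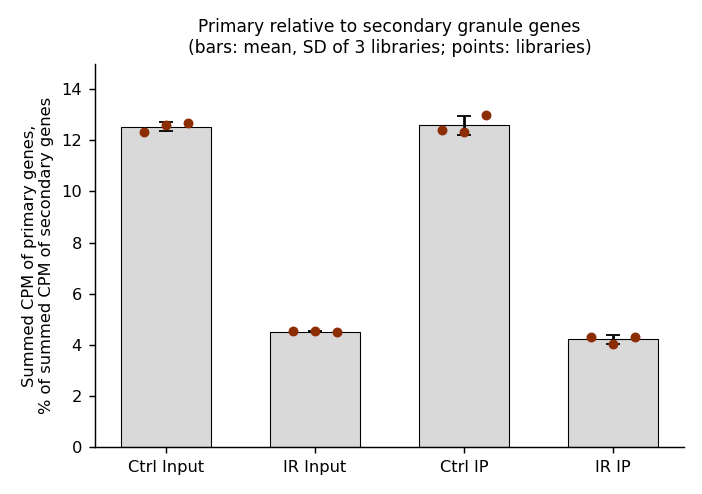
Summed CPM of *Mpo*, *Elane*, *Prtn3* and *Ctsg* as a percentage of the summed CPM of *Ltf*, *Lcn2*, *Ngp* and *Camp* (bars, mean; error bars, SD of 3 libraries; points, libraries). The share was between 12.3% and 13.0% in the 6 Ctrl libraries and between 4.02% and 4.53% in the 6 IR libraries.

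Other genes listed with the same granules did not all follow the members of their class in the Input. Of 10 further azurophil granule genes, 9 were tested, of which 3 fell, 2 rose and 4 did not pass (median log2 change -0.041). The serine protease gene *Prss57* fell (log2 change -1.07, SE 0.10) and so did *Ms4a3*, a gene of granulocyte-monocyte progenitors (-0.73, SE 0.057), while the membrane gene *Cd63* rose (0.26, SE 0.038). Of 15 further genes listed with the specific and gelatinase granules, 5 rose, 3 fell and 7 did not pass (median 0.069). *Adam8*, a membrane metalloprotease, stood at 0.46 (SE 0.029), *Arg2* at 0.34 (SE 0.10) and *Pglyrp1*, a peptidoglycan recognition protein, at 0.29 (SE 0.031). The lists are broad, and storage of each product in a granule, that of *Arg2* included, was not tested. Of 10 genes of granule packaging and sorting, 4 fell and 2 rose (median 0.0082); *Vps13b* fell by 1.11 and *Jagn1* by 0.38 on the log2 scale, and *Vamp8* rose by 0.26. Among 18 neutrophil genes outside the granules 10 rose and 1 fell (median 0.18), led by the stefin A genes *Stfa3*, *Stfa2l1* and *Stfa2* at 0.74, 0.53 and 0.42, which are near-identical copies among which reads can be split.

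Of 11 transcription factors of granulocyte differentiation, 5 fell, 3 rose and 3 did not pass in the Input (median log2 change 0.029). *Myb*, which maintains progenitors, fell (-0.77, SE 0.058, adjusted p = 2.05e-11 by edgeR), as did *Gfi1*, a repressor needed for neutrophil differentiation (-0.63, SE 0.074, 8.20e-08), and *Runx1* (-0.36, SE 0.038, 1.16e-08). Of 7 progenitor and proliferation genes 3 fell and 2 rose (median -0.20); *Mki67* fell by 1.01 (SE 0.029) and *Kit* by 0.48 (SE 0.079), and *Sox4* rose by 0.44 (SE 0.047).

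Markers of other cells moved between the same Input libraries. Of 12 eosinophil, mast cell and basophil granule genes 7 were tested, of which 5 fell and 1 rose (median log2 change -0.36), and their sum went from 173 to 178 CPM in Ctrl down to 131 to 144 CPM in IR, with *Mcpt4*, *Tpsb2* and *Tpsab1* under 3 counts in every Input. *Epx* and *Prg2*, which encode eosinophil granule proteins, fell by 2.37 (SE 0.093) and 1.94 (SE 0.097) on the log2 scale. *Ear6* of the same list was the 1 that rose, by 0.86 (SE 0.092). All 12 monocyte and macrophage markers were called, 7 higher and 5 lower, with a sum of 897 to 932 CPM in Ctrl and 926 to 973 CPM in IR. Of 8 dendritic cell markers 7 were tested, 4 rose and 2 fell, with a sum of 1229 to 1258 CPM in Ctrl and 1700 to 1722 CPM in IR. This sum was mostly that of *H2-Ab1*, which had a mean of 39752 counts per Input library and rose by 0.50. *Siglech*, with a mean of 433 counts, fell by 1.85. Lymphocyte markers summed to 13.8 to 14.8 CPM in Ctrl and 21.4 to 25.4 CPM in IR (2 of 6 tested rose and 2 fell). Tumor, stromal, erythroid and platelet markers summed to 181 to 188 CPM in Ctrl and 161 to 164 CPM in IR (2 of 7 tested rose and 2 fell), with *Krt8*, *Krt19*, *Dcn* and *Hbb-bs* under 3 counts in every Input. The part of these cells in the levels of the granule genes was not tested.

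**Figure D3:**
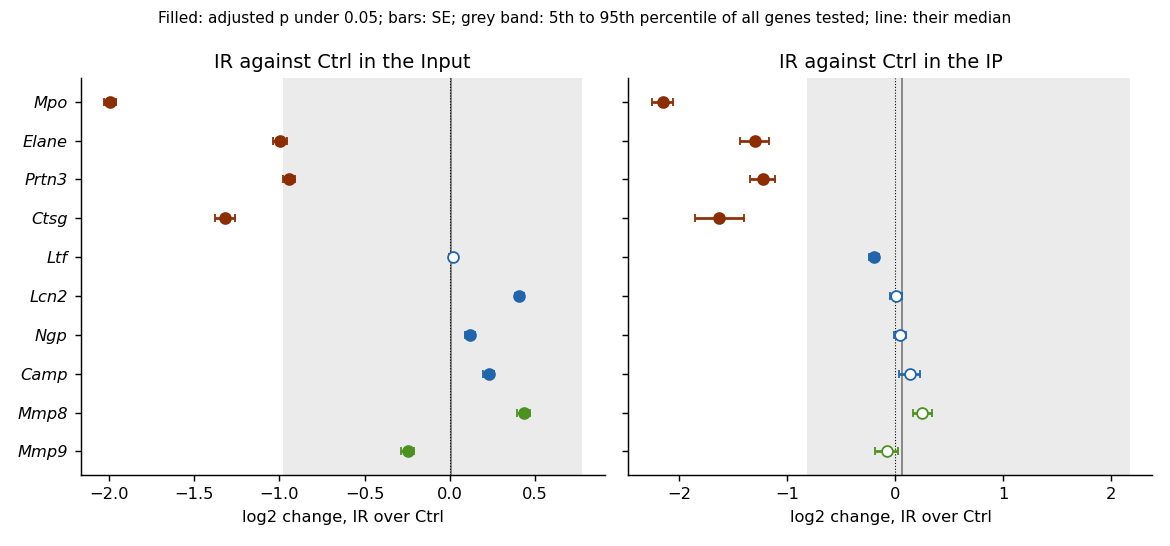
log2 change of IR over Ctrl for each granule protein gene in the Input and in the IP, with SE bars; filled points had an adjusted p under 0.05, the grey band spans the 5th to the 95th percentile of all genes tested and the line is their median. In the IP the primary genes, from -2.15 to -1.22, lay below the band, and the other 6 members lay between -0.19 and 0.25.

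The primary genes fell in the RNA recovered with YTHDF2 as well. The 4 of them and *Ltf* fell, 5 of 10 members where 9.85% of 19255 genes were called lower (edgeR quasi-likelihood test on the 6 IP libraries). None of the 10 rose, where 6.12% of genes were called higher. At an unadjusted p under 0.05 edgeR gave 1, *Mmp8*, with no share over all genes taken at that threshold. DESeq2 also gave *Mmp8* at its adjusted p, where it called 1761 of 19250 genes higher. *Mpo* gave 101, 97.7 and 113 CPM in the Ctrl IPs and 24.3, 23.1 and 22.3 CPM in the IR IPs. It was again the gene with the largest change of the 10, 4.43-fold lower (log2 change -2.15, SE 0.098, adjusted p = 3.69e-10 by edgeR), at percentile 0.358 of all genes. *Ctsg* gave 12.4, 11.8 and 13.96 CPM in Ctrl and 4.09, 4.43 and 3.74 CPM in IR, a 3.09-fold lower level (log2 change -1.63, SE 0.23, adjusted p = 9.08e-05 by edgeR). *Elane* gave 41.4, 45.4 and 41.4 CPM in Ctrl and 15.4, 16.4 and 19.9 CPM in IR, 2.46-fold lower (log2 change -1.30, SE 0.14, adjusted p = 4.23e-06 by edgeR). *Prtn3* gave 51.9, 49.8 and 47.8 CPM in Ctrl and 19.7, 21.1 and 22.8 CPM in IR, 2.33-fold lower (log2 change -1.22, SE 0.12, adjusted p = 1.58e-06 by edgeR). For each of the 4 all IR libraries were below all Ctrl libraries.

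*Ltf* also fell in the IP, from 889, 877 and 875 CPM in Ctrl to 731, 793 and 765 CPM in IR, 1.14-fold lower (log2 change -0.19, SE 0.043, adjusted p = 0.00486 by edgeR). Its groups did not overlap, but the fall was lost with scaling by library size alone, where the change was 0.011 (adjusted p = 0.881 by edgeR), the median of all genes 0.27 in place of 0.062, and the share of calls that were higher 76.3% in place of 38.3%. *Lcn2*, which rose in the Input, gave 282, 282 and 274 CPM in the Ctrl IPs and 267, 278 and 289 CPM in the IR IPs. The groups overlapped fully, with a change of 0.0068 (SE 0.054, adjusted p = 0.955 by edgeR). *Ngp* was measured at 423 to 451 CPM in Ctrl and 414 to 467 CPM in IR (log2 change 0.051, SE 0.055, adjusted p = 0.610 by edgeR), and *Camp* at 63.4 to 69.3 CPM in Ctrl and 63.9 to 80.2 CPM in IR (0.14, SE 0.099, 0.410). *Mmp8* was measured at 105 to 127 CPM in Ctrl and 121 to 145 CPM in IR, with overlap (0.25, SE 0.087, adjusted p = 0.0620 by edgeR, and 0.0444 without the third Ctrl IP or 0.00766 without the first IR IP). *Mmp9* was measured at 40.2 to 40.9 CPM in Ctrl and 36.3 to 39.2 CPM in IR (-0.076, SE 0.11, 0.703). Scaling by library size alone called 4 members higher in the IP, *Lcn2* (0.21), *Ngp* (0.26), *Camp* (0.34) and *Mmp8* (0.46), of which *Lcn2* and *Ngp* stayed below the median of all genes on that scale. Relative to that median, 8 of the 10 members lay below it under both scalings, all but *Camp* and *Mmp8*. Another scaling moves all genes by nearly the same amount, so this count could hardly differ between scalings. With at least 10 counts in every library 6 members lay below the median, and with no filter on low counts 10.

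In the IP, of 9 tested further azurophil genes 2 fell, *Prss57* (log2 change -1.46, SE 0.33) and *Ms4a3* (-0.84, SE 0.16), and 1 rose, *Lyz2* (0.20, SE 0.057). Of the 15 further genes listed with the specific and gelatinase granules 2 fell, the haptoglobin gene *Hp* (-0.62, SE 0.051) and the formyl peptide receptor gene *Fpr1* (-0.48, SE 0.14). Of the 18 neutrophil genes outside the granules 5 fell, and of the 11 transcription factors 4 fell, among them *Gfi1* (-0.95, SE 0.14) and *Cebpe* (-0.41, SE 0.094), a factor that activates the secondary granule genes. Of the 10 packaging genes 1 was called, *Vps13b*, which was higher in the IP (0.66, SE 0.11).

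The study used the IP against the Input to define the transcripts that YTHDF2 binds, and the granule genes stood below it. All 10 were lower in the Ctrl IP than in the Ctrl Input by the edgeR quasi-likelihood test, with adjusted p-values between 1.04e-17 and 4.11e-11, where 34.6% of 17416 genes were called lower and 34.1% higher. All 10 were also lower in IR, with adjusted p-values between 7.09e-12 and 7.11e-08, where 30.4% of 18650 genes were called lower and 32.1% higher. The median log2 ratio of IP to Input was -1.90 over the members in Ctrl and -2.20 in IR, against 0.018 and 0.10 over all genes. In Ctrl the secondary gene *Camp* had the lowest ratio of the 10, 5.44-fold below the Input (log2 ratio -2.44, SE 0.049), followed by *Ctsg* (-2.18, SE 0.086), *Prtn3* (-2.05, SE 0.051) and *Lcn2* (-2.02, SE 0.037). *Mmp8* had the highest, 2.04-fold below the Input (-1.03, SE 0.059). In IR the ratios ran from -2.65 (SE 0.076) for *Camp* to -1.32 (SE 0.072) for *Mmp8*. The 10 members lay between percentiles 2.97 and 19.8 of all genes in Ctrl, and between 2.02 and 13.2 in IR. The share of reads outside exons was also higher in the IP than in the Input, and its part in the ratios was not tested. With no control antibody a low ratio cannot be told apart from low recovery of any RNA in the IP.

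**Figure D4:**
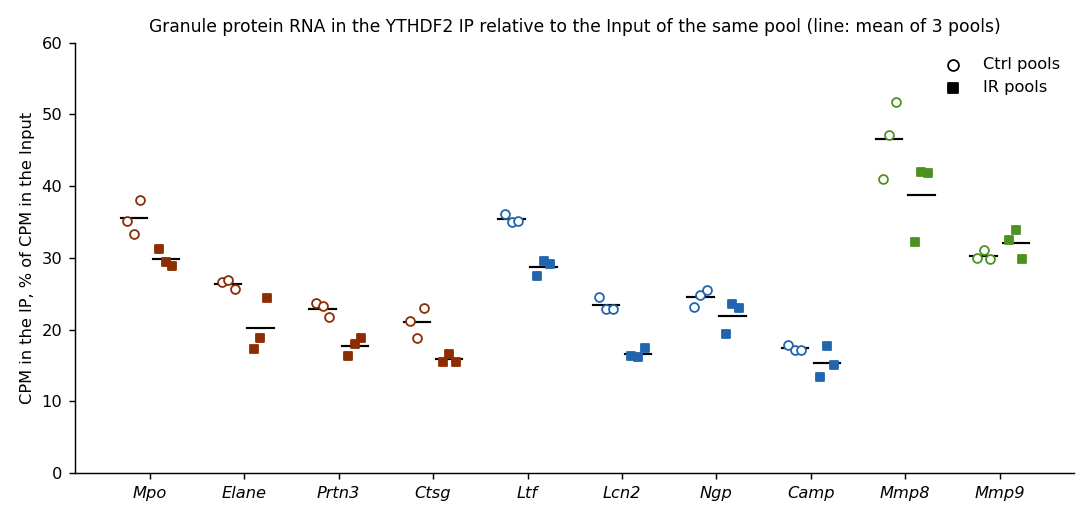
CPM in the IP as a percentage of the CPM in the Input of the same pool, for each granule protein gene (open circles, 3 Ctrl pools; filled squares, 3 IR pools; line, mean). All 10 genes stood below 60% in every pool, and *Mmp8* had the highest mean in both conditions.

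Most other neutrophil transcripts showed low ratios as well, but low ratios were not particular to neutrophil genes. All 9 tested further azurophil genes were lower in the IP in both conditions, led by the lysozyme gene *Lyz2* (log2 ratio -3.24 in Ctrl and -3.14 in IR). Of the 15 further genes listed with the specific and gelatinase granules 10 were lower and 4 higher in Ctrl. In IR 11 of them were lower and 3 higher, with *Olfm4* (olfactomedin 4) at -2.92 in Ctrl and -3.02 in IR and *Chil3* at -2.76 and -2.91. *Srgn*, whose proteoglycan packs the granule proteases, was the packaging gene with the lowest ratio, at -3.89 and -3.78. Of the 18 neutrophil genes outside the granules 15 were lower and 2 higher in each condition. All 6 genes listed for CD11b+ cells were lower in both (medians -1.53 and -1.69). Of 7 tested eosinophil, mast cell and basophil granule genes, 7 were lower in Ctrl and 6 in IR, with none higher. Of 12 monocyte and macrophage markers 6 were lower and 3 higher in Ctrl, and 8 and 1 in IR. Of 7 tested dendritic cell markers 3 were lower and 3 higher in Ctrl, and 4 and 1 in IR. In contrast, 9 of the 11 transcription factors were above the Input in Ctrl and 8 in IR, with *Cebpd* at 2.34 and 1.71. Of the factors, *Myb* was the one below the Input in both, at -1.66 and -0.93.

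Most of the granule transcripts are short. The median length of the 10 main transcripts was 1123.5 bases, against 2923 over 13009 coding genes tested. The sequence after the coding region had a median of 215 against 915 bases. *Mpo*, *Ltf*, *Mmp8* and *Mmp9* were nearer the median gene in length, at 2750, 2743, 2425 and 3175 bases. Short transcripts had low ratios throughout, with a median log2 ratio of -1.11 in Ctrl over 879 genes under 1000 bases, -0.31 over 2841 genes of 1000 to 2000 bases, and -0.11 over 5314 genes of 2000 to 4000 bases. Against genes of their own length class all 10 members still lay below the median, by differing amounts. *Elane* in Ctrl, at -1.85, lay above the lower quartile of its class, at -1.93. In Ctrl *Elane*, *Lcn2* and *Camp* were at percentiles 28.0, 23.0 and 13.3 of the genes under 1000 bases, and *Prtn3*, *Ctsg* and *Ngp* at 7.07, 5.81 and 8.06 of the next class. *Mpo*, *Ltf*, *Mmp8* and *Mmp9*, of 2000 to 4000 bases, were at percentiles 10.3, 10.3, 19.2 and 6.68 of theirs. GGACT, a common form of the sequence in which m6A is placed, occurred 1.28 times per kb in the median member and 1.06 times in the median gene. It was present in 9 of the 10 transcripts, 90%, against 91.4% of the genes; *Ngp* was the one without it and *Ltf* had the most, with 6.

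**Figure D5:**
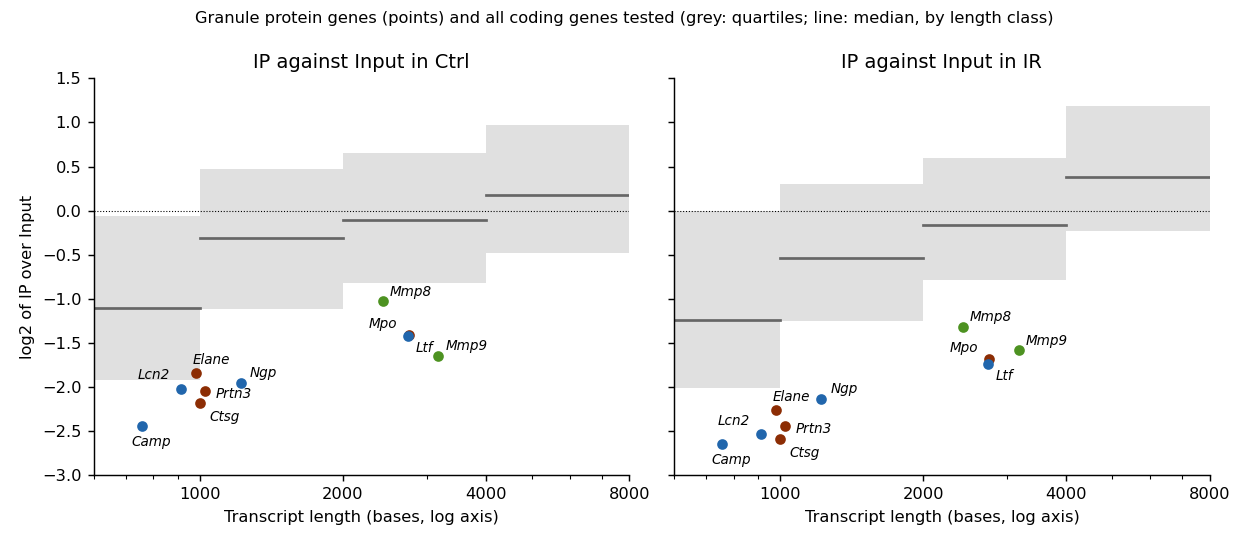
log2 ratio of IP to Input against the length of the main transcript (log axis) for the 10 granule protein genes (points), with the median and quartiles of all coding genes tested in 4 length classes (line and grey). In both conditions every member lay below the median of its class.

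The difference between both ratios was tested directly by an interaction term in a fit of the 12 libraries. The IP to Input ratio fell with irradiation for 5 of the 10 members, where 13.9% of 20720 genes were called lower. At an unadjusted p under 0.05 edgeR gave 8 lower. No share over all genes was taken at that threshold, so the 8 cannot be set against the 13.9%. DESeq2 gave 4 at its adjusted p, without *Mpo* (adjusted p = 0.122), where it called 2668 of 19499 genes lower. None rose, where 6.28% were called higher (0 also at an unadjusted p under 0.05 and by DESeq2). *Lcn2* had the largest fall. Its IP level was 24.5%, 22.9% and 22.8% of the Input in the Ctrl pools and 16.3%, 16.2% and 17.4% in the IR pools. The pools of the conditions lay apart, and the ratio was 1.40-fold lower in IR (log2 difference -0.49, SE 0.052, adjusted p = 8.74e-07 by edgeR). *Ltf* gave 36.1%, 34.9% and 35.2% in Ctrl and 27.4%, 29.6% and 29.1% in IR, a 1.23-fold lower ratio (-0.30, SE 0.042, adjusted p = 2.59e-05 by edgeR). *Prtn3* gave 23.7%, 23.2% and 21.7% in Ctrl and 16.3%, 17.98% and 18.8% in IR (-0.37, SE 0.086, adjusted p = 0.00381 by edgeR). *Elane* gave 26.6%, 26.8% and 25.6% in Ctrl and 17.3%, 18.9% and 24.3% in IR (-0.39, SE 0.11, adjusted p = 0.0183 by edgeR). The third IR pool of *Elane* was close to the Ctrl pools.

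*Mpo* gave 35.1%, 33.3% and 38.1% in Ctrl and 31.3%, 29.5% and 28.9% in IR, and its call was the least secure (-0.25, SE 0.085, adjusted p = 0.0475 by edgeR). It was lost with the pool as a block (adjusted p = 0.0721 by edgeR), and without 11 of the 12 libraries in turn, all but the first IR IP library (adjusted p from 0.0273 to 0.344); over 19 alternatives it passed once. The *Elane* call held in 10 of 19 alternatives and was lost without the first Ctrl Input (adjusted p = 0.0607), the first IR Input (0.0540) or any 1 of the Ctrl IPs (0.0559, 0.131 and 0.0631). The *Prtn3* and *Ltf* calls held in 18 and the *Lcn2* call in 19. *Ctsg* (-0.39, SE 0.15, adjusted p = 0.0815), *Mmp8* (-0.27, SE 0.099, 0.0629), *Ngp* (-0.16, SE 0.061, 0.0805), *Camp* (-0.18, SE 0.089, 0.177) and *Mmp9* (0.083, SE 0.085, 0.578) did not pass in the edgeR fit, though without the second IR IP library *Ctsg* (0.0488) and *Camp* (0.0164) did, and with no filter on low counts *Ngp* (-0.18, adjusted p = 0.0303) and *Mmp8* (-0.29, 0.00762) did. The direction rests on the scale. The median of all genes was -0.083 with the main scaling and 0.23 with library size alone, and 31.1% and 76.5% of the calls were higher. With library size alone 1 member, *Lcn2* (-0.18), was called lower and *Mmp9* (0.40) higher, and *Mpo*, *Ltf*, *Ngp*, *Camp* and *Mmp8* turned positive. Relative to the median of all genes, 9 of the 10 members were lower under both scalings, all but *Mmp9*. Another scaling moves all genes by nearly the same amount, so this count could hardly differ between scalings. It did vary with the filter, with 8 members below the median at 10 or more counts in every library, and 10 with no filter. The comparison shares its libraries with those above. The mRNA of *Ythdf2* was measured at 57.7 to 58.5 CPM in the Ctrl Input and 47.7 to 55.3 CPM in the IR Input (log2 change -0.25, SE 0.052, adjusted p = 0.000297 by edgeR). The antibody binds the protein, whose level these libraries do not measure. In MDSCs, a narrower set of cells, the paper reports more YTHDF2 after irradiation, as mRNA by qPCR and as protein by flow cytometry. The part of the YTHDF2 level in the ratios was not tested.

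Across the 12 libraries each member was compared with 10567 other coding genes by Pearson correlation of log2 CPM, as a description, since all libraries share the contrast of IP with Input. *Elane*, *Prtn3* and *Ctsg* had the same closest gene, *Ebna1bp2*, which encodes a nucleolar protein of ribosome assembly (r = 0.997, 0.995 and 0.996). Next came *Tars* (0.992) and *Kpnb1* (0.991) for *Elane*, *Hyou1* (0.994) and *Tars* (0.992) for *Prtn3*, and *Trip13* (0.992) and *Kpnb1* (0.991) for *Ctsg*. *Mpo* was closest to *Rrs1* (r = 0.989), *Rcc2* (0.986) and *Nol10* (0.983), of which *Rrs1* and *Nol10* also encode nucleolar proteins. A shared function of the closest genes was not tested. Of the secondary genes, *Ltf* was closest to *Pfn1* (r = 0.998), *Lcn2* to *Rps7* (0.999), *Ngp* to *Tyrobp* (0.999) and *Camp* to *Cdc42* (0.999). *Mmp8* was closest to *Rtraf* (0.994) and *Mmp9* to *Cycs* (0.998).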

How the data were processed

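RNA of cells labelled as tumor-infiltrating CD11b+ myeloid cells was sequenced as Input and YTHDF2 IP. The authors trimmed reads with Trimmomatic 0.39, aligned them to mm10 with HISAT (GENCODE annotation) and deposited raw counts per gene from HTSeq, with no normalization; the setting for strand in the counting is not given in the sources used here. The methods name extraction of total RNA, the labels a poly(A) selection. Symbols, exons and transcripts came from GENCODE M21, which matched 54409 of 54446 identifiers; lines of uncounted reads were left out of library sizes.

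Each comparison was fitted with edgeR 4.0.16 in R 4.3.3 (TMM factors, quasi-likelihood test, genes that reached 10 counts in 3 or more of the libraries compared, Benjamini-Hochberg adjustment over all genes tested, threshold 0.05); the SE is the log2 change over the root of F. DESeq2 1.42.0, other scalings and filters, a replicate block and leaving out libraries were alternatives, and the fits were tested on simulated data. The simulated data held 100 genes with an absolute log2 change of 1 and 100 with 2, among 16914 to 20720 genes, and no other change. Their spread was that estimated by edgeR. Many more genes were called in the real data, so the shares of false calls need not carry over. In the simulated data 18.5% of the DESeq2 calls were false for IR against Ctrl in the IP, against 4.92% with edgeR. For IP against Input in IR these were 23.1% and 6.92%, and for the change of IP over Input 16.5% and 5.26%. In the last comparison edgeR recovered 33% of the simulated log2 changes of 1. Genes outside the 10 were named where past the threshold with a mean of at least 100 counts, at most 3 per list. Members and lists were chosen with earlier results of these data known.

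Input and IP of one number came from one lysate per the methods, so the pool was the block there. Deviations of same-numbered Input and IP libraries correlated between -0.031 and 0.041. Between conditions the numbers only name the pools. Libraries of one group differed by more than sampling noise. The floor given for *Krt19* covers counting error alone, while each SE also holds the spread between libraries.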

Additional observations from a re-analysis of the deposited data

Results flagged for a closer look

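For 5 granule protein genes the IP to Input ratio differed between Ctrl and IR by the test of the interaction (edgeR, 12 libraries, adjusted p under 0.05). The log2 ratio in IR minus that in Ctrl was -0.49 for *Lcn2*, -0.39 for *Elane*, -0.37 for *Prtn3*, -0.30 for *Ltf* and -0.25 for *Mpo*, against a median of -0.083 over all 20720 genes tested. The call held in 19 of 19 alternatives for *Lcn2*, in 18 for *Prtn3* and *Ltf*, in 10 for *Elane* and in 1 for *Mpo*. With scaling by library size alone 1 member was lower, *Lcn2* (-0.18), and 1 was higher, *Mmp9* (0.40), and *Mpo* (0.067) and *Ltf* (0.012) turned positive. With the main scaling the IR pools were below the Ctrl pools for each of these genes in 3 of 3 pools. A part of reads outside annotated exons of 49.4% to 54.1% in the IR IP and of 41.8% to 42.7% in the Ctrl IP moved with the same contrast, and its part in the ratios was not tested.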

How the results depend on the processing

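With each library left out in turn, 4 members remained higher and 5 lower for IR against Ctrl in the Input, 10 lower for IP against Input in Ctrl and in IR, and 5 lower with 0 to 1 higher for IR against Ctrl in the IP, while 3 to 6 were lower (0 higher) for the change of IP over Input. In the IP, 1 member, *Mmp8*, was higher by DESeq2, with at least 10 counts in every library, with all 12 libraries in one fit, with coding nuclear genes only, and with the replicate block, and 4 were with library size only. For the change of IP over Input, 3 members were lower with DESeq2 size factors, with at least 10 counts in every library and with coding nuclear genes only, and 1 lower and 1 higher with library size only. The pool as a block changed 1 call there, *Mpo* (-0.24); otherwise 4 and 5, 1 and 5, and 10 and 10 members were called with the replicate block. Signs reversed with library size only for *Ltf* in the Input (-0.0013), for *Ltf* (0.011) and *Mmp9* (0.13) in the IP, and for *Mpo* (0.067), *Ltf* (0.012), *Ngp* (0.16), *Camp* (0.13) and *Mmp8* (0.044) in the change of IP over Input. *Lcn2* in the IP, near 0, reversed with no filter (-0.026), with all 12 libraries (-0.0026), and without single libraries (from -0.011 to 0.046). These settings change the scaling or the genes and samples used; the cause was not tested. Every alternative run for the 10 IP against Input ratios, in Ctrl and in IR, kept their direction and call. The fewest counts of a member were those of *Ctsg*, at 112 to 147 per library in the IR IP.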
